A study of Mus musculus with 106 samples.

Results

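LXR binding in mouse liver after the synthetic LXR agonist T09 was compared between Foxa2-KO animals and wild type (WT) animals, as 2 deposited lists of ChIP-seq peaks. The Foxa2-KO list held 2503 peaks and the WT list held 8095, together 10598 of the 234637 regions in all lists of the series read here. The members are all entries of both lists, sorted by whether they overlapped an entry of the other genotype by at least 1 base. Of the series' 106 samples, 3 Foxa2-KO libraries (LXR KO-T09) and 1 WT library (LXR WT-T09) belong to these lists, and each genotype was deposited as 1 list, so no test between genotypes over animals was possible. The Foxa2-KO livers carry Foxa2loxP/loxP;Alfp.Cre where labels of the series spell the genotype out, that is, floxed Foxa2 alleles with a Cre driven in the hepatic lineage. The livers of these LXR samples came from C57BL/6 mice of 3 months and were snap-frozen. They were taken 4 h after the ligand, which the series text calls injected and other labels give by oral gavage. The LXR sample labels give neither this time nor a route. The Foxa2, FXR and accessibility samples, whose lists are compared below, carry an age range in weeks in place of 3 months. Chromatin was precipitated with a rabbit polyclonal antibody to LXRα, and the series text gives 4 replicates for LXR, where 3 Foxa2-KO samples and 1 WT sample are labelled here. LXRα-KO livers named in the protocol were not used here. The peak lists do not measure the loss of Foxa2 itself. They also hold no RNA, so marker genes of liver cell types could only be counted beside peaks.

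LXRα (Nr1h3) and LXRβ (Nr1h2) are nuclear receptors for oxysterols that bind DNA as heterodimers with RXR, typically at direct repeats of AGGTCA-like sites spaced by 4 bases. In liver they are best known for switching on fatty acid synthesis through Srebf1 and its enzymes, and for cholesterol export through Abca1 and Abcg1. Foxa2 is a forkhead protein able to bind closed chromatin, and the series asked whether it is needed for ligand-dependent activation of FXR and LXRα.

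The promoters of Srebf1 and Fasn were in the WT list and in no Foxa2-KO LXR list. They are shown because both genes are known LXR targets and each peak covered a match to the LXR repeat of at least 9 of 12 letters, a loose match that 20.4% of all promoter windows and 9 of the 42 windows with a WT-only site also held. The sequences are the 250 bases before the start site, from RefSeq (GRCm38.p6, the mm10 build), with the 16-base element in capitals as read on the strand of the gene. That of Abca1 is added as the remaining promoter that held the same letters.
Srebf1: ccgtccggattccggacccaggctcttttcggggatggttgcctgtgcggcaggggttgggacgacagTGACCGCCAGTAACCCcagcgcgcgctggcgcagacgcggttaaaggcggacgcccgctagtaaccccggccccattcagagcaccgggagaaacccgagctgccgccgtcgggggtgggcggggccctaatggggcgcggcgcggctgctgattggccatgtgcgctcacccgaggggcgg
Fasn: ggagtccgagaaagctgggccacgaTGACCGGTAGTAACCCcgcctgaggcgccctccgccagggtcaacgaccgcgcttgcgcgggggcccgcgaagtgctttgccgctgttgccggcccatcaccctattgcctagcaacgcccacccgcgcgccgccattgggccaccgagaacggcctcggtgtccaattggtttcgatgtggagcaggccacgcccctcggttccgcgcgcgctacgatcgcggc
Abca1: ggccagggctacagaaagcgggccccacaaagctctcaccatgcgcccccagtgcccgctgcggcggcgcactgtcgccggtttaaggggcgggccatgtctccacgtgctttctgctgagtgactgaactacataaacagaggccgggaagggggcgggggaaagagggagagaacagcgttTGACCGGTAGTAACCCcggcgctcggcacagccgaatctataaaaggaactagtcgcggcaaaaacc
The Srebf1 stretch is chr11:60210472-60210721, that of Fasn chr11:120824548-120824797 and that of Abca1 chr4:53159896-53160145, all on the minus strand. On the opposite strand the capitals read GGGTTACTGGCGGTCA at Srebf1, and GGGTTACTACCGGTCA at both Fasn and Abca1. Each has 9 of the 12 fixed letters of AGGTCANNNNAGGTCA, the idealised repeat. Counted from the start site, the elements lay at -182 to -167 in Srebf1, at -225 to -210 in Fasn and at -67 to -52 in Abca1. The letters common to the first 2, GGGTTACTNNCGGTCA, occurred on either strand in 3 of 21263 promoter windows (0.0141%), which were those of Srebf1, Fasn and Abca1. That pattern was written down after the Srebf1 and Fasn peaks had been seen, so its rarity describes the windows and is no test of them.

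At Srebf1, which encodes the transcription factor SREBP-1 that drives lipogenic genes, the WT T09 peak spanned chr11:60210507-60210708 (202 bases, entry 94, q 0.00995). Its centre lay 39 bases from that of the element. The same place was entry 64 in the WT GW list (q 0.000871) and entry 87 in the WT vehicle list (q 0.00172). The Foxa2-KO lists with T09 and with vehicle had no peak inside Srebf1 or up to 10 kb away. The Foxa2-KO GW list had 2, the better placed inside the gene 7038 bases from the start (entry 1264, q 0.0296) and another of 4 bases. At Fasn, the fatty acid synthase, the WT T09 peak spanned chr11:120824687-120824816 (130 bases), and its centre was 14 bases from that of the element. It stood far down the list, at entry 5527 (q 0.0358), and the WT vehicle list had a 57-base peak there at entry 508 (q 0.0268). FXR lists of WT with GW4064 and with its vehicle also covered the Fasn promoter. At Abca1, the cholesterol exporter, neither T09 list covered the promoter, while the WT GW list did at entry 1121 (q 0.0194) and the WT vehicle list at entry 992 (q 0.0287). The WT GW peak at Abca1 contained the element, and the WT vehicle peak, of 9 bases, was centred 33 bases from its centre. Among the 6 LXR lists, these 3 promoters were covered only in WT, and all 3 were covered in WT with vehicle.

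A gene counted as beside a peak when the centre of the peak fell inside it or no more than 10 kb away. Of 29 known LXR target genes, 1 had a Foxa2-KO T09 peak, where 7.85% of all 21887 protein-coding genes did. For WT the count was 10 of the 29, where 14.6% of all genes did. With the WT list cut to the length of the Foxa2-KO list, the WT count was 6, where 6.04% of all genes had a WT peak, a share below the 7.85% of Foxa2-KO. With q of 0.01 or less, which left 173 Foxa2-KO and 94 WT peaks, the counts were 1 in Foxa2-KO and 3 in WT. They were Ugt1a1 in Foxa2-KO, and Srebf1, Scd1 and Ugt1a1 in WT. The share of all genes at this cut is not given here. Of all genes, 5.51% had a peak of the Foxa2-KO list alone, 12.3% of the WT list alone and 2.33% of both. Among the targets these numbers were 0, 9 and 1. The 9 targets with a WT peak alone were Srebf1, Fasn, Acaca and the desaturases Scd1 and Scd2 of fatty acid synthesis, the exporters Abca1 and Abcg1, Mylip (the ligase that degrades the LDL receptor) and Lpcat3 (a phospholipid remodelling enzyme). The target with peaks in both genotypes was Ugt1a1, a glucuronosyltransferase, where the Foxa2-KO peak (entry 47) was 9049 bases wide and lay, like the 3 WT peaks, in a region listed for all 4 antibodies of the series. The list of targets was drawn up with earlier results of these data known, so the counts are a description.

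The WT peaks at these targets differed in how well they stood out. Scd1 had a 234-base peak 5767 bases outside the gene at chr19:44388567-44388800 (entry 85, q 0.00676), which was found again in the WT GW, WT vehicle and WT Foxa2 T09 lists. The peak in Acaca, acetyl-CoA carboxylase, was 78 bases wide (entry 153, q 0.0221) and lay 15800 bases from the start. The peaks at Abca1 (58 bases, entry 5571), Abcg1 (18 bases, entry 1708), Mylip (53 bases, entry 1076), Lpcat3 (65 bases, entry 7762) and Scd2 (7 bases, entry 4189) were narrow and low in the list. A further WT site lay 58252 bases from Abca1 at chr4:53218159-53218321 (entry 104, q 0.0137) and recurred in both other WT lists. It falls beyond the 10 kb limit.

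Of 24 fatty acid synthesis genes, 3 had a Foxa2-KO peak (12.5%, against 7.85% of all genes) and 9 a WT peak (37.5%, against 14.6% of all genes), with 1 in common. Unlike the share of LXR targets, the Foxa2-KO share here was above that of all genes. Of the 9 genes with a WT peak, Fasn, Acaca, Scd1 and Scd2 are also on the list of targets. Besides the targets above, the WT list held peaks at the elongases Elovl1, Elovl5 and Elovl6 and at Acss2, which makes acetyl-CoA. The WT peak at Elovl5 was 185 bases wide, 6647 bases before the start at chr9:77910626-77910810 (entry 60, q 0.00168), and the WT vehicle list held the place at entry 73 (q 0.00057). Elovl6 had 2 WT peaks, of 95 bases (entry 498) and 34 bases (entry 5621). The WT peaks at Elovl1 (70 bases, entry 2016) and Acss2 (11 bases, entry 3091) were low in the list. The Foxa2-KO list held peaks of 14 bases at Elovl2 and 8 bases at Acsl3, an acyl-CoA synthetase. Acacb, the mitochondrial acetyl-CoA carboxylase, had a peak in both genotypes, 43 bases wide and 7609 bases from the start in Foxa2-KO (entry 1411), and 31 bases wide and 7608 bases from it in WT (entry 2424). The best placed Foxa2-KO peak at these 3 genes was that at Acsl3, at entry 1368.

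**Figure D1:**
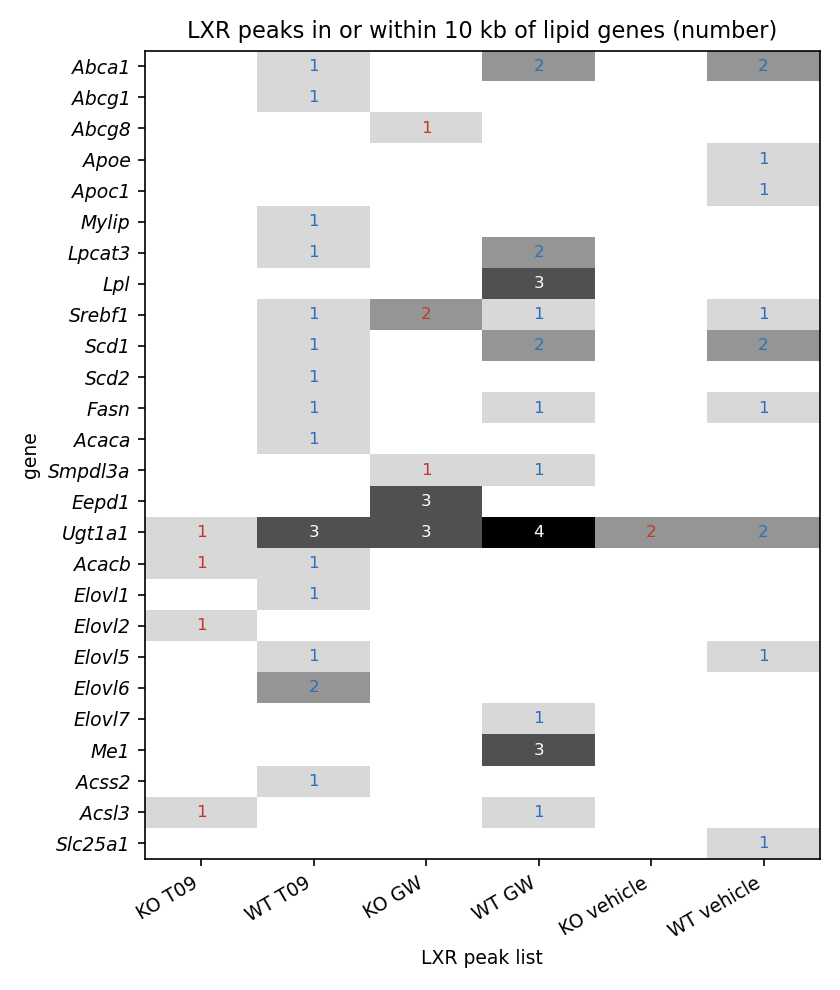
Number of LXR peaks in or within 10 kb of each LXR target or fatty acid synthesis gene (rows) in the 6 LXR lists (columns), with blank cells for 0; genes with no LXR peak are not drawn. In the T09 columns Foxa2-KO has entries at 4 genes and WT at 15.

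The other lists are to be read against the same 7.85% of all genes in Foxa2-KO and 14.6% in WT. Of 23 triglyceride storage genes, 2 had a Foxa2-KO peak (8.7%) and 1 a WT peak (4.35%). The Foxa2-KO peaks were at Abhd5, the co-activator of adipose triglyceride lipase (72 bases, 438 bases from the start, entry 181, q 0.012), and at Cideb, a lipid droplet and VLDL protein, which had 2. The WT peak was 6 bases wide at Lpin2, a phosphatidate phosphatase. Cholesterol synthesis and LDL uptake had 1 of 26 genes beside a Foxa2-KO peak (3.85%) and 4 beside a WT peak (15.4%). Bile acid handling had 0 of 27 in Foxa2-KO and 3 in WT (11.1%). Hepatocyte identity genes had 1 of 26 in Foxa2-KO (3.85%, Foxa3) and 5 in WT (19.2%). Kupffer cell markers had 0 of 14 in Foxa2-KO and 1 in WT (7.14%), and stellate cell markers had 1 of 12 in Foxa2-KO (8.33%) and 2 in WT (16.7%). Sinusoidal endothelial markers had 2 of 12 in Foxa2-KO and 3 in WT, and cholangiocyte markers had 3 of 10 in Foxa2-KO and 3 in WT, shares above those of all genes. In lists this short, 1 gene moves a share by several percentage points.

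Among the 31 nuclear receptors and partners reported here, 6 had a Foxa2-KO peak (19.4%, against 7.85% of all genes) and 9 a WT peak (29.0%, against 14.6% of all genes). Foxa2-KO peaks lay in or within 10 kb of Nr1h2 itself, its partner Rxrb, Ppara and the thyroid hormone receptor Thrb. Nr1h2 had 2, of 140 bases inside the gene (entry 248, q 0.0251) and of 132 bases 6828 bases outside it (entry 1201). The peak counted for Rxrb was 6922 bases outside that gene and touched the promoter window of Ring1. The peak counted for Ppara, of 2 bases, was 4894 bases outside that gene, in the promoter window of Cdpf1. The count of 6 includes a member on chromosome 18 that is not described here. WT peaks lay at Rxrg, Hnf4a (3 bases), the orphan receptors Rora (5 peaks) and Nr1d2, Thrb (5 peaks), the oestrogen receptor Esr1, Nr2f1 and the coactivator Ncoa3. Ncoa1 had a peak in both genotypes, 35 bases wide in Foxa2-KO and 8 bases wide in WT. Nr1h3, Rxra and Foxa2 had no peak of either T09 list.

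The other LXR lists are set beside this with the share of all genes they touched. With GW, 5 of the 29 targets had a Foxa2-KO peak (16.3% of all genes did) and 8 a WT peak (25.5% of all genes). With vehicle, 1 had a Foxa2-KO peak (0.489% of all genes) and 7 a WT peak (9.38% of all genes). The share of targets was 17.2% in Foxa2-KO and 27.6% in WT with GW, and 3.45% in Foxa2-KO and 24.1% in WT with vehicle, against 3.45% in Foxa2-KO and 34.5% in WT with T09. For the targets, Foxa2-KO with T09 alone among the 6 lists was below its share of all genes, a position that rests on a count of 1 gene. Both vehicle lists and WT with T09 were above theirs, that of Foxa2-KO with vehicle through 1 gene, Ugt1a1, and both GW lists were slightly above. The Foxa2-KO GW genes were Abcg8, Srebf1, Smpdl3a, Eepd1 and Ugt1a1. Of the 24 fatty acid synthesis genes, 5 had a WT GW peak (20.8%, below the 25.5% of all genes) and 0 a Foxa2-KO GW peak. With vehicle, 4 had a WT peak (16.7%, above the 9.38% of all genes) and 0 a Foxa2-KO peak. The raised share of these genes in WT with T09 was thus not seen in WT with GW.

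The lists themselves shared few entries. Of Foxa2-KO T09 peaks, 170 of 2503 overlapped a WT T09 peak (6.79%, exact 95% interval 5.84 to 7.85), and of WT peaks 174 of 8095 did (2.15%, interval 1.84 to 2.49). These and the intervals below are exact binomial intervals, which cover counting error only. Regions listed for all 4 antibodies (Foxa2, FXR, LXR and PPAR) held 80 Foxa2-KO peaks (3.2%) and 106 WT peaks (1.31%). Outside them 107 peaks of either list overlapped, which is 4.42% of the Foxa2-KO peaks and 1.34% of the WT peaks. The sites found in 1 genotype alone were then 2316 in Foxa2-KO and 7882 in WT.

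Overlap was concentrated at the head of the lists, which are in order of q. Of the first 100 Foxa2-KO entries, 51 overlapped a WT peak (51.0%, interval 40.8 to 61.1), and of entries 101 to 250, 50 did (33.3%, interval 25.9 to 41.5). Beyond entry 1000 the share was 2.33%. Of the first 100 WT entries, 78 overlapped a Foxa2-KO peak (78.0%, interval 68.6 to 85.7), of entries 101 to 250, 19 did (12.7%, interval 7.8 to 19.1), and beyond entry 1000 the share was 0.958%. Much of this lay in the regions common to all antibodies, which held 28 of the first 100 Foxa2-KO entries and 45 of the first 100 WT entries.

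**Figure D2:**
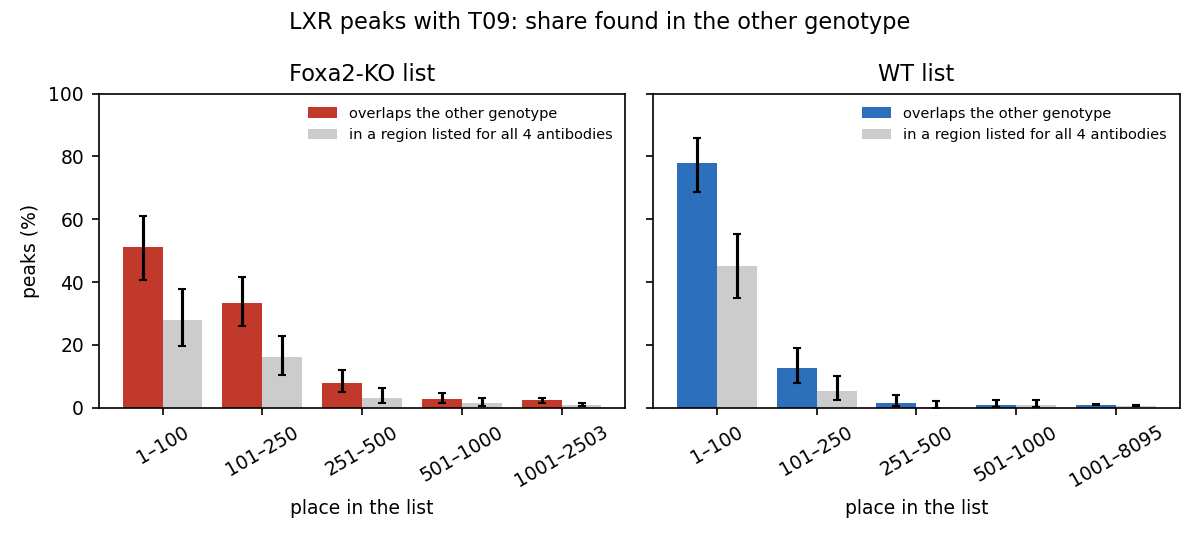
Share of peaks (y axis, %) that overlapped a peak of the other genotype (coloured) or lay in a region listed for all 4 antibodies (grey), by place in the Foxa2-KO list (left) and the WT list (right); bars show exact 95% binomial intervals. The overlap was 51.0% in the first 100 Foxa2-KO entries and 78.0% in the first 100 WT entries, and 2.33% and 0.958% past entry 1000.

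The genotype-specific sites were not alike in strength. Among Foxa2-KO-only sites, 92 of 2316 had q of 0.01 or less and 52 had 0.001 or less, with a lowest q of 9.46e-62. Among WT-only sites, 12 of 7882 had q of 0.01 or less and 0 had 0.001 or less, with a lowest q of 0.0013. The median q went the other way, 0.0463 in Foxa2-KO-only and 0.0331 in WT-only sites. Median widths were 63 bases in Foxa2-KO-only sites and 37 bases in WT-only sites, while sites in both genotypes had 255 bases in Foxa2-KO and 250 in WT. Peaks of 20 bases or less made up 17.5% of the Foxa2-KO list and 34.2% of the WT list. The lists rest on 3 Foxa2-KO libraries and 1 WT library of unknown depth, and the part of depth in these differences was not tested.

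Most of the leading Foxa2-KO-only sites stood at gene starts. The first 10, outside the regions common to all antibodies, were nearest to Cenpu (a centromere protein), Arid1a (a subunit of the BAF chromatin remodelling complex), Eps15 (an endocytic adaptor), Prdm15 (a zinc finger transcription factor), Kansl3 (a subunit of the NSL histone acetyltransferase complex), Sgms1 (sphingomyelin synthase), Ints10 (an Integrator subunit), Mfap3l, Ptma (prothymosin alpha) and Fut10. Their widths were 247 to 683 bases and their q at most 9.12e-25. The strongest was the Cenpu site at chr8:46551739-46552067 (entry 5, q 9.46e-62), 166 bases before the start. Arid1a had a site at chr4:133754263-133754659 (entry 6, q 1.68e-45) and another at entry 31 (q 1.31e-14), and Rbpj, the nuclear mediator of Notch signalling, had 2 within 1 kb of a start (entries 23 and 29). Of the first 10, 6 were within 1 kb of a start site, and of the first 40, 26 were, down to entry 83 (q 4.49e-05). Ints10 and Fut10 have no start site in the table used, and their sites lay 92 bases outside Ints10 and 31 bases outside Fut10. The centre of the Eps15 site was inside the gene, 11 bases from the nearest gene end in the gene table, and that nearest to Ptma was 39018 bases away from it.

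Most of these leading sites were not confined to the mutant. All 10 were also in the Foxa2-KO GW, Foxa2-KO vehicle and WT vehicle LXR lists, and 5 were in the WT GW list. Their absence from the WT T09 list is part of how the class was defined. Of the first 40, 37 were in the Foxa2-KO GW list, 7 in the WT GW list, 28 in the Foxa2-KO vehicle list and 32 in the WT vehicle list. Taking the 142 Foxa2-KO-only sites among the first 250 entries, 40.1% were found with GW in Foxa2-KO and 11.3% in WT, and 23.2% with vehicle in Foxa2-KO and 28.9% in WT. PPAR lists with T09 held 3.52% of them in Foxa2-KO and 0.704% in WT. Of the first 40, the Cited2 site (entry 34), beside a transcriptional coregulator, was in the most other ChIP lists, 8. These were 3 LXR lists and every Foxa2 list, and no PPAR list was among them.

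**Figure D3:**
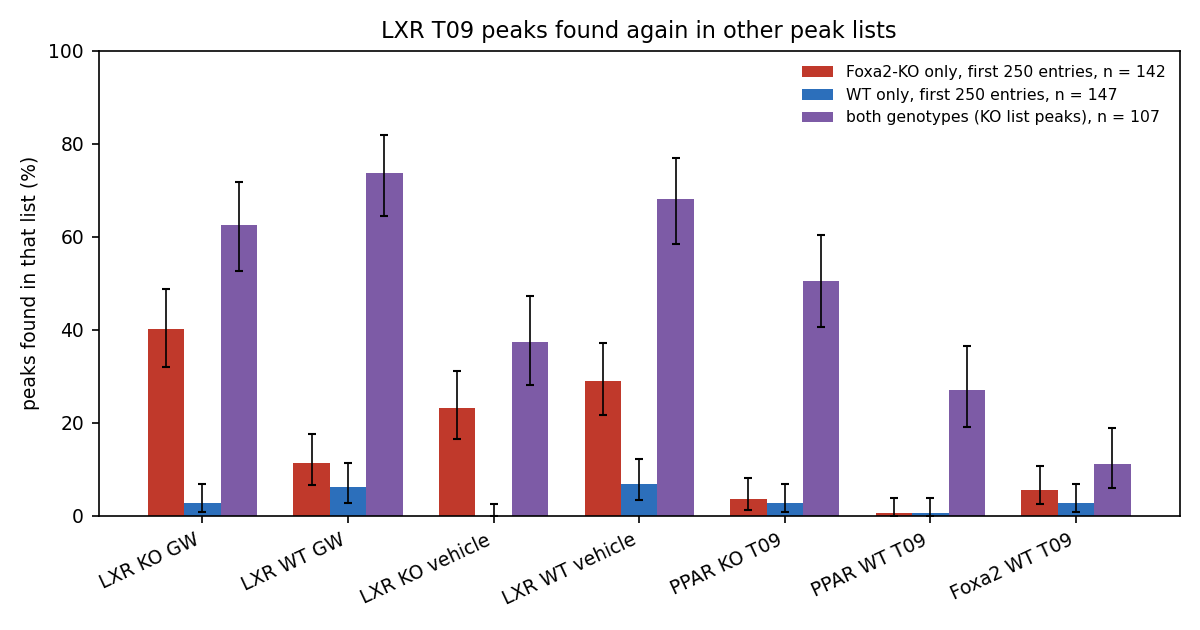
Share of LXR T09 peaks (y axis, %) found again in each of 7 other lists (x axis), for Foxa2-KO-only sites and WT-only sites of the first 250 entries and for sites in both genotypes, outside regions common to all antibodies; bars show exact 95% binomial intervals. Foxa2-KO-only sites reached 40.1% with GW in Foxa2-KO and 28.9% with vehicle in WT, where WT-only sites reached 2.72% and 6.8%. The classes are matched by place in the list and not by strength. Their median q was 0.00511 in Foxa2-KO-only and 0.0239 in WT-only sites.

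The promoters under those sites were rich in CpG. Those of the first 10 sites whose promoter window was covered are printed as the 250 bases before the start, with every CG in capitals, to show the kind of sequence involved.
Cenpu: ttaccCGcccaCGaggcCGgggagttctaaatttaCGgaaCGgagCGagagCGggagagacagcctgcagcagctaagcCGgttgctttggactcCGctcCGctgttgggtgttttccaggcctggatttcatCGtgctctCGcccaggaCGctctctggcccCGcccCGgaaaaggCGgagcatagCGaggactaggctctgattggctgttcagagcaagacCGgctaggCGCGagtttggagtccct
Prdm15: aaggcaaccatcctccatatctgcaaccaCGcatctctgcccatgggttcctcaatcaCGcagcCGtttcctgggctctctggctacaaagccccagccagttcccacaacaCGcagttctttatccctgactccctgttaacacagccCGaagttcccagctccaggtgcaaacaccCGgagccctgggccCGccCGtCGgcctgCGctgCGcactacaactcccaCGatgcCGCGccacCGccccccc
Kansl3: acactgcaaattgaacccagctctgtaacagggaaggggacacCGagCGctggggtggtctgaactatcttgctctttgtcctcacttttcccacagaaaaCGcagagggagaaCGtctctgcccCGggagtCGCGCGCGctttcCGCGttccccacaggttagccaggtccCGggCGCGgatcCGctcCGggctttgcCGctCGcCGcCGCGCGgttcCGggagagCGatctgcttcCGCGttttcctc
Sgms1: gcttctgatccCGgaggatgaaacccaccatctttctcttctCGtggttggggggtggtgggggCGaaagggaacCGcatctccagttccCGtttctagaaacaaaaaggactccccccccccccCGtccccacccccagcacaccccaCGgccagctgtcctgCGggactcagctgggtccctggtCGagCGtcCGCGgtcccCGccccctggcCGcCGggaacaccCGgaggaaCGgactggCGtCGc
Mfap3l: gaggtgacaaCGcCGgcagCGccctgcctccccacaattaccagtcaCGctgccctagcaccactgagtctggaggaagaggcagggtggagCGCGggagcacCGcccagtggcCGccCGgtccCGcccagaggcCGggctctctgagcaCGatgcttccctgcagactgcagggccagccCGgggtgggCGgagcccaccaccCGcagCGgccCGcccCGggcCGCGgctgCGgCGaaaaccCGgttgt
They are chr8:46551819-46552068 (plus strand) for Cenpu, chr16:97851851-97852100 (minus) for Prdm15, chr1:36369182-36369431 (minus) for Kansl3, chr19:32388513-32388762 (minus) for Sgms1 and chr8:60632575-60632824 (plus) for Mfap3l. These stretches held 20 CpG at Cenpu, 15 at Prdm15, 26 at Kansl3, 19 at Sgms1 and 23 at Mfap3l, and their G+C contents ran from 61.2% at Cenpu to 72.8% at Mfap3l. The Prdm15 peak ran from -49 to 633 bases around the start used for printing, so most of that stretch lay outside the peak. A second Prdm15 promoter window that the peak touched had 75.3% G+C and 34 CpG. The WT peaks at Srebf1 and Fasn lay on stretches of 30 and 33 CpG, so CpG number alone does not set the named promoters apart.

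Over all promoters, a window ran from 250 bases before to 50 bases after a start site. Foxa2-KO peaks touched 138 of 21263 windows (0.649%) and WT peaks 52 (0.245%). The 127 windows with a Foxa2-KO-only site, of 120 genes, had a median G+C of 69.7% (quartiles 64.3 and 73.3) and 28 CpG. The 42 windows with a WT-only site had 56.5% (quartiles 50.4 and 65.1) and 13 CpG, and all windows had 56.3% (quartiles 48.3 and 64.7) and 13 CpG. The GC box GGGCGG, searched on both strands like the motifs that follow, was in 74.8% of the Foxa2-KO-only windows, 45.2% of the WT-only windows and 46.2% of all. The single site AGGTCA was in 9.45% of Foxa2-KO-only windows, 7.14% of WT-only windows and 14.7% of all. A match of at least 9 of 12 letters to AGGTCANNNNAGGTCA, which can include an AGGTCA, was in 11.8% of Foxa2-KO-only windows, 21.4% of WT-only windows and 20.4% of all. The forkhead motif TGTTTAC was in 1.57% of Foxa2-KO-only windows, 2.38% of WT-only windows and 3.01% of all. The Foxa2-KO-only windows thus had more G+C and GC boxes than all windows and fewer matches to the repeat, a description with no test. The WT-only windows lay near all windows in G+C, CpG, GC boxes and the repeat. Their AGGTCA and forkhead shares rest on 3 and 1 of 42 windows, and the Foxa2-KO-only forkhead share on 2 of 127.

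**Figure D4:**
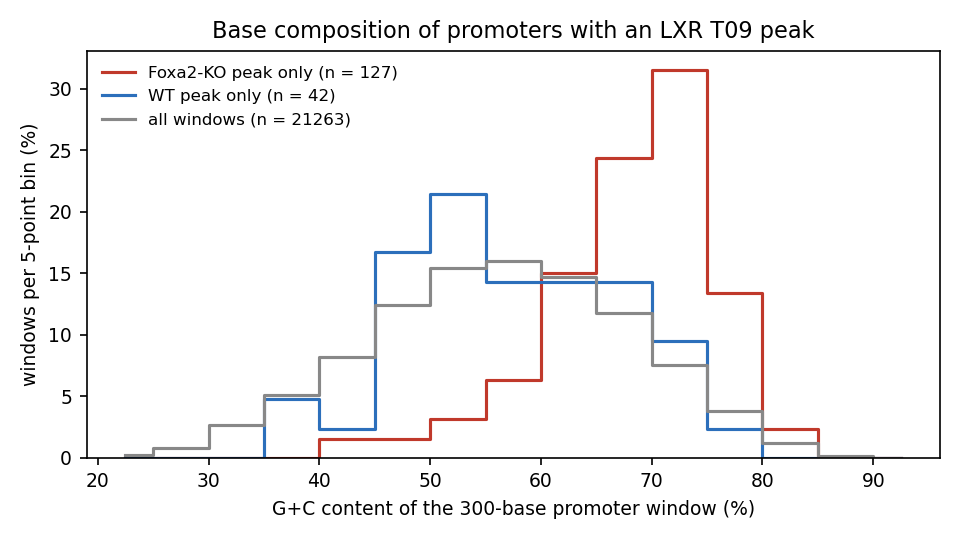
G+C content of 300-base promoter windows (x axis, %) against the share of windows per bin of 5 percentage points (y axis), for windows with a Foxa2-KO-only site, with a WT-only site, and all windows. The Foxa2-KO-only curve peaks between 70 and 75%, with 31.5% of windows, and the WT-only curve between 50 and 55%, with 21.4%.

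Distance to start sites set the whole classes apart. Leaving out chromosome 18, which has no start sites in the table, 290 of 2238 Foxa2-KO-only sites lay within 1 kb of a start (13.0%, interval 11.6 to 14.4), against 162 of 7608 WT-only sites (2.13%, interval 1.82 to 2.48). In the first 250 entries these shares were 40.0% of Foxa2-KO-only sites (56 of 140) and 3.57% of WT-only sites (5 of 140). Past entry 250 they were 11.2% of Foxa2-KO-only and 2.1% of WT-only sites, so the difference was also there among the weaker entries. Within 1 kb, 98 Foxa2-KO-only sites were centred upstream and 192 downstream, with a median of 123 bases downstream, while 58 WT-only sites were centred upstream and 104 downstream, with a median of 126 bases. Sites over 50 kb from any start made up 47.3% of Foxa2-KO-only and 59.4% of WT-only sites. Among the other LXR lists the share within 1 kb was 3.98% in Foxa2-KO and 4.91% in WT with GW, and 17.3% (27 of 156 peaks) in Foxa2-KO and 3.17% in WT with vehicle. The T09 lists as a whole had 12.4% in Foxa2-KO and 2.24% in WT, so the WT T09 list had the lowest share of the 6. In the first 250 entries outside the common regions it was 30.3% in Foxa2-KO and 3.72% in WT with T09, 21.4% in Foxa2-KO and 17.5% in WT with GW, and 23.1% in Foxa2-KO and 11.4% in WT with vehicle.

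**Figure D5:**
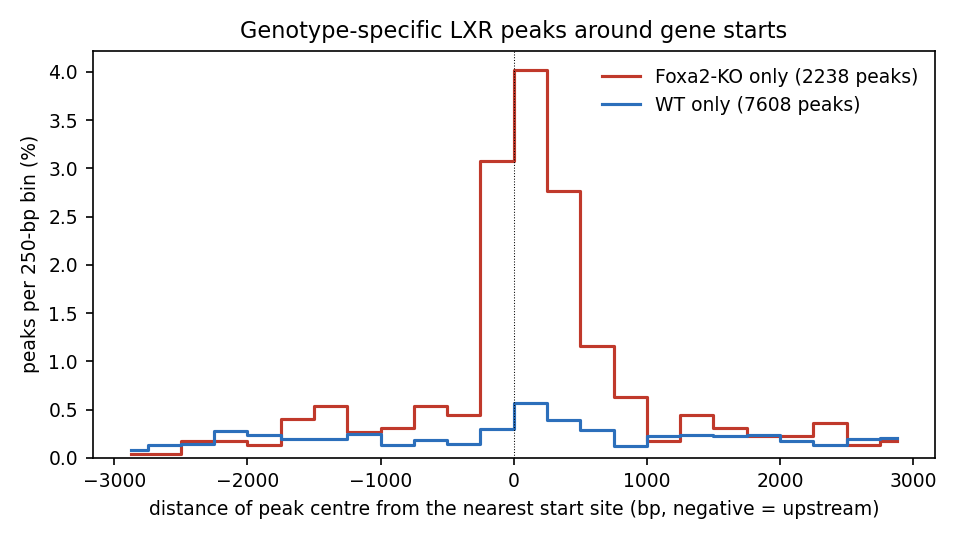
Share of genotype-specific LXR T09 peaks (y axis, % per 250-bp bin) by signed distance of the peak centre from the nearest start site (x axis, bp). Foxa2-KO-only sites reach 4.02% in the bin just downstream of the start, where WT-only sites reach 0.565%.

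The leading WT-only sites lay away from gene starts. The first 10 were nearest to Rpl14 (a ribosomal protein), Elovl5, Cd46, Arid1b (another BAF subunit), Zcchc4, Chrm2 (a muscarinic receptor), Vmn2r117 (a vomeronasal receptor), Scd1, Cop1 (a ubiquitin ligase) and Gfra2, at entries 59 to 92. None was within 1 kb of a start site, and of the first 40 only that at Srebf1 was. Of the first 10, 1 was in the Foxa2-KO GW list and 0 in the Foxa2-KO vehicle list, while 4 were in the WT GW list and 5 in the WT vehicle list. In all, 30 WT-only sites were in both other WT lists, and 17 of these were in no other Foxa2-KO list. They were led by the sites near Rpl14, Arid1b, Vmn2r117, Scd1, Srebf1, Abca1, Tox3, Lrrk1, Gm3376 and Alkbh8, of which those near Vmn2r117 and Alkbh8 were also in the Foxa2-KO GW list.

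Recurrence over whole classes was low on both sides. Of the 2316 Foxa2-KO-only sites, 96 (4.15%) were in another Foxa2-KO LXR list, 122 (5.27%) were in another WT list and 2155 (93.0%) were in none. Of the 7882 WT-only sites, 83 (1.05%) were in another Foxa2-KO list, 199 (2.52%) were in another WT list and 7635 (96.9%) were in none. The other lists hold 8803 and 161 peaks in Foxa2-KO, and 14219 and 4803 in WT. Of the Foxa2-KO-only sites 4 were in both other Foxa2-KO lists and in no WT list. Recurrence was higher at q of 0.01 or less. There, 55 of 92 Foxa2-KO-only sites (59.8%) were in another Foxa2-KO list and 40 (43.5%) in another WT list. Of the 12 WT-only sites at that q, 6 (50.0%, interval 21.1 to 78.9) were in another WT list and 1 in another Foxa2-KO list.

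Most sites in both genotypes recurred in at least 1 other LXR list, and fewer in all of them. Of the 107 Foxa2-KO peaks in this class, 33 (30.8%) were in all 4 other LXR lists and 17 (15.9%) were in none. Outside the regions common to all antibodies, 62.6% of these peaks were found with GW in Foxa2-KO and 73.8% in WT, and 37.4% with vehicle in Foxa2-KO and 68.2% in WT. PPAR lists with T09 held 50.5% of them in Foxa2-KO and 27.1% in WT. The first 10 were nearest to Rpp21, Vmn1r2, P4ha2, Cr2, Ifngr2, Il1rapl1, Gm40035, Epha7, Pou4f1 and E030030I06Rik. All 10 were in the other 4 LXR lists, and they were in 7 to 16 of the 21 other ChIP lists. The strongest, near Rpp21 at chr17:36231191-36231700 (q 4.33e-70), was in 15, among them all 8 PPAR lists, and the site near Vmn1r2 was 4955 bases wide. None of the 10 was within 1 kb of a start site. Of the lipid genes, only Acacb had a peak of this class.

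Over the whole lists, Foxa2 peaks of WT liver with T09 were seldom at genotype-specific LXR sites. Outside the common regions they overlapped 29 of 2316 Foxa2-KO-only sites (1.25%, interval 0.84 to 1.79) and 86 of 7882 WT-only sites (1.09%, interval 0.874 to 1.35), intervals that overlap. With q of 0.01 or less in both lists, common regions kept, the shares were 13.3% of 113 Foxa2-KO-only and 41.2% of 34 WT-only sites. In those regions 85.0% of all Foxa2-KO peaks and 78.3% of all WT peaks had a Foxa2 T09 peak. Outside them, with the other list left whole, 6 of 92 Foxa2-KO-only sites at that q had one (6.52%, interval 2.43 to 13.7). So did 2 of 12 WT-only sites (16.7%, interval 2.09 to 48.4), a share that rests on 2 peaks. The low shares thus describe the whole lists and not their strongest entries. For sites in both genotypes the share was 12 of 107 Foxa2-KO peaks (11.2%, interval 5.93 to 18.8). Regions that gained accessibility with T09 in WT liver, in the authors' deposited list, held 2.63% of Foxa2-KO-only sites, 1.48% of WT-only sites and 6.54% of those in both genotypes. Among the named lipid sites, that at Scd1 overlapped a Foxa2 T09 peak, while those at Srebf1, Fasn and Elovl5 did not.

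For scale, the GW lists of the 2 genotypes shared as little as the T09 lists. Outside the common regions 232 of 8710 Foxa2-KO GW peaks (2.66%) overlapped a WT GW peak, and 235 of 14104 WT GW peaks (1.67%) overlapped a Foxa2-KO GW peak. Lists of 1 genotype did not always share more with each other than with the other genotype. The Foxa2-KO T09 list had 6.56% of its peaks in the Foxa2-KO GW list and 3.05% in the Foxa2-KO vehicle list, next to 4.42% in the WT T09 list, 6.48% in the WT GW list and 5.53% in the WT vehicle list. The WT T09 list had 2.9% of its peaks in the WT GW list and 1.79% in the WT vehicle list, next to 1.34% in the Foxa2-KO T09 list, 1.81% in the Foxa2-KO GW list and 0.538% in the Foxa2-KO vehicle list.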

How the data were processed

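LXR ChIP-seq peaks were called by the authors against input with PeakSeq, per the series design text, and reads were aligned to mm10 with BWA, per the submitters' processing notes (version not given in the sources used here). Each deposited LXR list gives positions and 1 q-value per peak, and both T09 lists are ordered by it. The names of the lists give an FDR of 0.1 for Foxa2-KO and 0.05 for WT, but no q exceeds 0.05 in either. The deposited Foxa2 and FXR lists were used for their positions (peak end and start), PPAR lists likewise, and the authors' list of regions gained with T09, which also holds a deposited fold (ratio) and q-value, for positions alone. The 3 other accessibility lists were not used. No counts, coverage or library depths were at hand, and 0 columns of single samples were left out.

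Overlap meant at least 1 shared base. Regions present in lists of all 4 antibodies numbered 102 and were set apart. Genes came from RefSeq (GRCm38.p6), 21887 protein-coding in all, of which 17492 (79.9%) had a promoter window, with none on chromosome 18. Intervals are Clopper-Pearson at 95%. Named genes were the members of 4 lists with a T09 peak, the genes nearest to the first 10 sites of each class, genotype-specific sites found again in other lists, and Foxa2, Nr1h3, Nr1h2 and Rxra. Some members of the nuclear receptor list are not reported here and were left out of its counts. Members and lists were chosen with earlier results of these data known, and start-site distances, promoter windows and motifs after seeing the data. The overlap and motif steps were tested on simulated data. Alternatives were other q, width, overlap, list-length and distance limits. Intervals came from scipy 1.17.1, tables from pandas 2.3.3 and numpy 2.4.6 under Python 3.11.15, and plots from matplotlib 3.10.9.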

Additional observations from a re-analysis of the deposited data

How the results depend on the processing

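No paired analysis was possible because each genotype is 1 list, which also left no replicate to leave out. The overlap of Foxa2-KO with WT peaks (6.79%) became 34.7% at q of 0.01 or less, 4.83% at equal list length, 4.42% without regions of all 4 antibodies and 9.86% for peaks of at least 50 bases. That of WT with Foxa2-KO peaks (2.15%) became 63.8%, 4.79%, 1.34% and 4.66% under the same settings. A larger required overlap (50% of the narrower peak) or gaps of up to 200 bases moved neither beyond its interval. Genes beside a peak were 6.64% in Foxa2-KO and 12.3% in WT at 5 kb, 16.5% in Foxa2-KO and 28.7% in WT at 50 kb, and 6.04% for the WT list cut to the length of the Foxa2-KO list. Of the 29 LXR targets, 1 had a Foxa2-KO peak and 8 a WT peak at 5 kb. At 50 kb the counts were 3 in Foxa2-KO and 10 in WT, next to the 16.5% and 28.7% of all genes. At q of 0.01 or less they were 1 in Foxa2-KO and 3 in WT, and at equal length 1 and 6. Foxa2 peaks were at 1.84% of all Foxa2-KO-only sites, at 1.25% without regions of all antibodies and at 13.3% at the strict q. For WT-only sites these were 1.41%, 1.09% and 41.2%, and 1.72% at equal length. For Foxa2-KO peaks in both genotypes they were 38.8%, 11.2% and 51.7%, and for WT peaks in both 39.1%, 10.3% and 51.7%. The strict q leaves few sites, and the order of genotypes for Foxa2 turned round with it while regions of all antibodies were kept. Outside those regions, with the other list left whole, the strict shares were 6.52% of 92 Foxa2-KO-only sites and 16.7% of 12 WT-only sites. Their intervals overlap, and the WT share rests on 2 peaks. The alternatives for start sites were chosen after seeing the data. Within 1 kb of a start were 13.0% of Foxa2-KO-only sites, 46.7% at the strict q, 15.0% at 50 bases or more, 11.5% of those in no other LXR list and 15.9% by either end of a gene. For WT-only sites these were 2.13%, 8.33%, 2.61%, 2.01% and 4.0%, so Foxa2-KO-only sites were the higher in every setting tried. The strict WT-only share is 1 of 12 sites (interval 0.211 to 38.5), which overlaps the Foxa2-KO-only interval of 36.1 to 57.5. The cause of these shifts was not tested. Library depth is unknown and limits what an absent peak means: it was not listed, which does not show that LXR was not bound.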
